A study of Mus musculus with 30 samples.

Results

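The transcription factors that set the identity of helper T cells were followed across the sorted CD4 T cells of mouse spleen. The 8 genes, chosen by symbol, were Gata3, Tbx21, Eomes, Rora, Foxp3, Runx1, Runx3 and Zbtb7b. They are 8 of 55573 genes counted by QuantSeq, an assay that reads the 3' ends of transcripts, and 8 of 34030 genes counted by RNA-seq. QuantSeq counted 7 of them well enough to be tested, Foxp3 being the exception, and RNA-seq all 8.

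A helper T cell takes on a fate when a lineage factor switches on its own programme and holds down the others. GATA3 directs the TH2 programme, with IL-4, IL-5 and IL-13 as its cytokines. T-bet, the product of Tbx21, directs the TH1 programme and interferon gamma, and EOMES is its relative in CD8 T cells and NK cells. RORα, the product of Rora, acts beside RORγt in TH17 cells. FOXP3 defines regulatory T cells. RUNX1 and RUNX3 bind DNA with the partner CBFβ, and RUNX3 silences Cd4 in the CD8 lineage and Il4 in TH1 cells. ThPOK, the product of Zbtb7b, commits thymocytes to the CD4 lineage. Follicular helper (TFH) cells carry CXCR5 and PD1 and depend on BCL6, a factor outside this set.

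All mice were C57BL/6, aged 8 weeks, and each library began with 10 ng of total RNA. In QuantSeq, TFH2 cells came from IL-4BacTg x OTII Tg mice and TFH cells from OTII Tg mice, where OTII is a transgenic T cell receptor. Both were sorted as CD4+CD45.2+ PD1+ cells in CXCR5lo, CXCR5int and CXCR5hi gates, with 2, 2 and 2 libraries for TFH2 and 3, 2 and 3 for TFH. Bcl6KO cells (n = 2) were CD4+hCD2+ cells of Bcl6f/fCd4cre x OTII Tg mice, in which Cre is driven by Cd4. The label of that genotype names no IL-4BacTg, although the gate is hCD2+. Il4KO cells (n = 2) were CD4+ cells of Il4-/- x OTII Tg mice, without an hCD2 gate. TH2 cells (n = 4), the group against which most others were set, were CD4+hCD2+ cells of IL-4BacTg x OTII Tg mice. In RNA-seq, TFH CXCR5hi cells (n = 2) came from OTII Tg mice, TH2 cells (n = 2) from IL-4BacTg mice whose label names no OTII, and naive cells (n = 2), gated CD4+CD62L+CD44-CD25-, from wild type mice. Comparisons between these groups therefore differ in genotype, in gate or in both. By their labels, QuantSeq TFH2 and TH2 cells share a genotype and differ in gate. TFH2 and TFH cells share the gates and differ in genotype, and the CXCR5 gates within TFH2 or within TFH share a genotype. No label gives an immunization, an animal, a batch or a replicate number, and the replicate numbers used here only name the libraries of a group in the order of their deposition records.

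Each QuantSeq library held 1834612 to 4442404 counts, and each RNA-seq library 12561389 to 35635859 counts over 1 transcript per gene. QuantSeq libraries of 1 group differed widely, with a chi-square of 35.1 to 56.1 per degree of freedom over 18 pairs. RNA-seq replicates were much closer (2.65 to 21.4 over 3 pairs). The CXCR5hi gate was visible in the RNA of QuantSeq. Cxcr5 was 117 and 139 CPM (the usual scaling of a count by the total of its library) in TFH2 CXCR5hi libraries. In TFH CXCR5hi libraries it was 80.3 to 135 CPM. In TFH2 it was 44.1 and 52.4 CPM in CXCR5int and 34.5 and 35.4 CPM in CXCR5lo libraries. In TFH, the CXCR5int (10.6 and 57.8 CPM) and CXCR5lo (12.6 to 27.3 CPM) libraries overlapped. Cxcr5 was not counted in TH2, Bcl6KO or Il4KO libraries. Bcl6 had 6.73 and 26.4 CPM in the Bcl6KO libraries, against 0.39 to 13.2 CPM in TH2 libraries. The labels do not say which part of Bcl6 is deleted, so a 3'-end count is no check of that knockout. Il4 had 0 and 0.98 CPM in Il4KO libraries, against 0 in 3 TH2 libraries and 13.3 CPM in 1, which checks little either. The CD4 T cell markers Cd3d, Cd3e, Cd3g, Cd4, Trac and Cd28 were all counted in every QuantSeq group, summing to 2340 to 4900 CPM per library. In RNA-seq, Trac had 6070 and 6130 CPM in TFH and 11000 and 15900 CPM in TH2 libraries but 376 and 383 CPM in naive libraries, while Cd3e stayed within 359 to 662 CPM in these groups.

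The remaining RNA-seq libraries, 1 labelled TFH2 CXCR5hi and 1 labelled TH2, both from IL-4BacTg x OTII Tg mice, went against their labels. The library labelled TFH2 held 1.11 CPM of Cxcr5, 5.97 CPM of Pdcd1, the gene of PD1, 13.1 CPM of Bcl6 and 5.17 CPM of Il21. The library labelled TH2 held 135 CPM of Cxcr5, 139 CPM of Pdcd1, 121 CPM of Bcl6 and 108 CPM of Il21. Neither has a replicate, and both stand outside every comparison.

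Before the levels, 3 promoters are shown, since Gata3 and Runx3 are the members that changed in QuantSeq and Runx1 is the close relative of Runx3. Each holds 250 bases before and 50 after a start site (RefSeq, GRCm38.p6), with the letters of the family's own binding word in capitals.
Gata3, chr2:9878551-9878850, minus strand: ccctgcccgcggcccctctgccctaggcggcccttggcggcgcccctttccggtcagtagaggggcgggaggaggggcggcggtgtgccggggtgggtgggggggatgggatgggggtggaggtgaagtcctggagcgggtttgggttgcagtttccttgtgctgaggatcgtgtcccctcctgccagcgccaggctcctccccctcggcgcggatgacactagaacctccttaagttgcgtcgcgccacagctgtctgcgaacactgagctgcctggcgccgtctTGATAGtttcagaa
Runx3, chr4:135120395-135120694, plus strand: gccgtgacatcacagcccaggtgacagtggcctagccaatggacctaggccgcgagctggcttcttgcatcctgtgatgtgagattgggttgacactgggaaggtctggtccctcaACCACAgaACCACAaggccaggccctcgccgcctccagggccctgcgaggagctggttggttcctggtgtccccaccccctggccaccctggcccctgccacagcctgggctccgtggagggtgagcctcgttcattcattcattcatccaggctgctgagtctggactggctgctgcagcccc
Runx1, chr16:92826025-92826324, minus strand: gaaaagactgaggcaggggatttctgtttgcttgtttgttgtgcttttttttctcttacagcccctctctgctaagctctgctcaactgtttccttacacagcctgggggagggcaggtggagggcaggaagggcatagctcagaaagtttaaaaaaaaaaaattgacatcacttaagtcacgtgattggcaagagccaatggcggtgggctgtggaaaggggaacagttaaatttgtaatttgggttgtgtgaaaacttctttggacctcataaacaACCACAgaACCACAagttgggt
Both strands were searched. The GATA words were the letters AGATAA, the letters AGATAG, the letters TGATAA and the letters TGATAG, and the RUNX words were the letters TGTGGT and also the letters TGCGGT. The GATA words differ only in their outer letters. The Gata3 promoter held 1 GATA word, at +36. This far-upstream Runx3 promoter held a pair of RUNX words in the reverse orientation, at -134 and -126, and the far-upstream Runx1 promoter a pair at +28 and +36. The nearer Runx3 promoter (chr4:135152295-135152594) and the nearer Runx1 promoter (chr16:92697280-92697579) held none. Over 32851 promoters of the same length, 29.8% held a GATA word and 22.4% a RUNX word. Among the 12 promoters of the 8 genes, 4 held a GATA word, 3 a RUNX word and 1 the ROR word AGGTCA (16.3% of all promoters). None held the T-box word GGTGTGA (3.98% of all) or the forkhead word GTAAACA (3.65% of all). A word in a window is a description and not a binding site.

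Gata3 (ENSMUSG00000015619, chr2:9857078-9890034) was the member that set TFH2 cells apart from TFH cells. In the CXCR5lo gate, TFH2 libraries had 288 and 515 CPM and TFH libraries 203, 103 and 87.6 CPM. In the CXCR5int gate, the values were 255 and 281 CPM in TFH2 and 135 and 183 CPM in TFH. In the CXCR5hi gate, they were 278 and 196 CPM in TFH2 and 56.4, 51.6 and 147 CPM in TFH. Within each gate, every TFH2 library lay above every TFH library. Over the 3 gates the fitted difference was 1.23 ± 0.25 (log2, SE), or 2.35-fold higher in TFH2 (adjusted p = 0.00107, edgeR quasi-likelihood test). Of all genes tested, 0.647% were called, an adjusted p under 0.05 being a call, and Gata3 was the only one called of the 7 members tested. Against TH2 libraries, which had 238, 325, 211 and 266 CPM, Gata3 of TFH2 CXCR5hi libraries differed by -0.16 ± 0.40 (95% interval -0.93 to 0.62) and that of TFH2 CXCR5lo libraries by 0.53 ± 0.39 (-0.22 to 1.29). Both intervals include no difference, and their libraries overlap with TH2.

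TFH2 and TFH libraries also differed in the sex-linked transcripts they held. Ddx3y, a Y-linked gene, was 48.5 to 101 CPM in TFH2 libraries and not counted in any TFH library, and Xist, made by the inactive X, was 0 to 22.3 CPM in TFH2 and 175 to 532 CPM in TFH. The transgene and the sex of the donors therefore cannot be told apart in this comparison. Markers of other cells moved as well. The 4 erythroid markers summed to 270 to 1050 CPM in TFH2 libraries, 32.6 to 161 CPM in TFH libraries and 0 to 25.3 CPM in the others. The 7 myeloid markers summed to 34.2 to 525 CPM in TFH2, 34.1 to 61.9 CPM in TFH and 0 to 14.1 CPM in the others, and the 7 B cell markers to 202 to 906, 151 to 284 and 60.5 to 184 CPM. Their part in the results was not tested. The 7 CD8 and NK cell markers, cells in which Tbx21, Eomes and Runx3 are also known, summed to at most 35.6 CPM in any QuantSeq library, with 1 to 3 of 7 counted per group, and Cd8a and Ncr1 were not counted in any. In bulk RNA, fewer cells with a transcript and less of it per cell cannot be told apart.

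**Figure D1:**
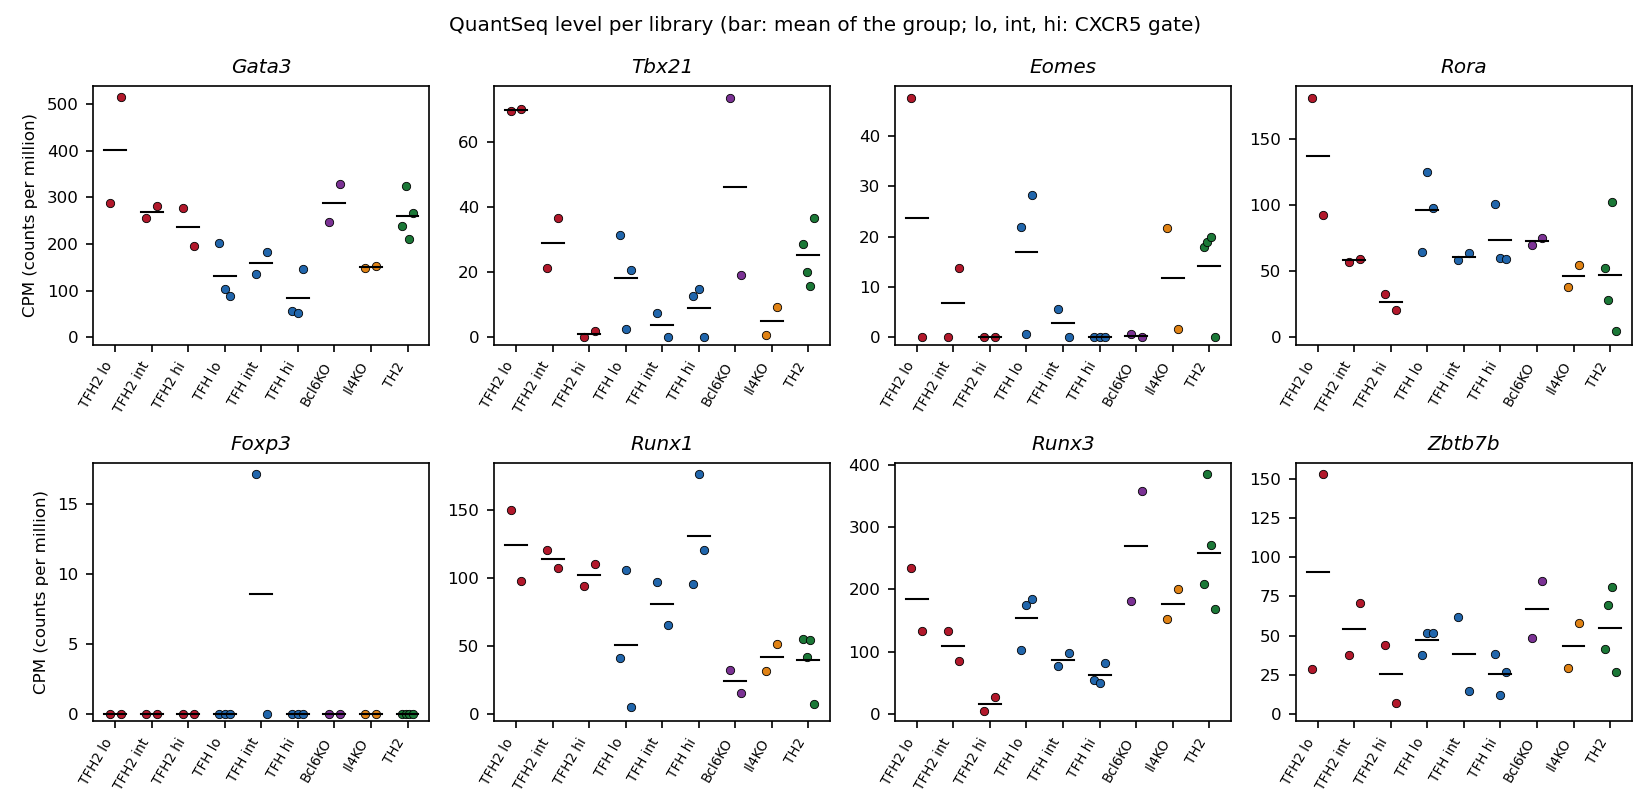
QuantSeq level of each member in CPM (vertical axis, linear, from 0) in each of the 22 libraries (points) by group, with the mean of the group as a bar. Gata3 lies at 196 CPM or more in the 6 TFH2 libraries, Runx3 is lowest in the 2 TFH2 CXCR5hi libraries (4.85 and 27.5 CPM), and Foxp3 has counts in 1 library.

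Against TH2 cells, TFH CXCR5hi cells held less Gata3 and less Runx3. Gata3 averaged 84.9 ± 53.6 CPM (SD, n = 3) in TFH CXCR5hi and 260 ± 48.9 CPM (n = 4) in TH2 libraries, and no TFH library reached the lowest TH2 library. The difference was -1.62 ± 0.36 (adjusted p = 0.00157), or 3.07-fold lower. It lost its call without TFH CXCR5hi replicate 2 (-1.35, adjusted p = 0.0553), the adjusted p over all alternatives being 5.69e-05 to 0.0553. Runx3 was 54.3, 49.3 and 82.1 CPM in TFH CXCR5hi libraries, against 209, 385, 271 and 168 CPM in TH2 libraries. That difference, -2.07 ± 0.43 (adjusted p = 0.000412), was 4.19-fold. The 2 members called stand beside 3.51% of all genes called. In the CXCR5lo gate, TFH libraries had 131 ± 62.5 CPM of Gata3 and 154 ± 44.7 CPM of Runx3 (n = 3). Neither passed the test against TH2 (-0.99 ± 0.36, adjusted p = 0.163, and -0.74 ± 0.41, adjusted p = 0.399), and no other member did, where 2.22% of all genes were called. At an unadjusted p under 0.05, 1 member (Gata3) would count there, and DESeq2 called 0. Gata3 passed in that gate without TFH CXCR5lo replicate 1 (-1.42, adjusted p = 0.0459; range over alternatives 0.0459 to 0.479).

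Runx3 (ENSMUSG00000070691, chr4:135120652-135177990) was lowest in the CXCR5hi gate of TFH2. TFH2 CXCR5lo libraries had 235 and 133 CPM, TFH2 CXCR5int libraries 133 and 84.9 CPM and TFH2 CXCR5hi libraries 4.85 and 27.5 CPM, the last standing for 12 and 75 counts. Both CXCR5hi libraries lay below every other QuantSeq library. Against TH2 libraries (258 ± 94.5 CPM), TFH2 CXCR5hi libraries (16.2 ± 16.0 CPM) differed by -4.04 ± 0.57 (adjusted p = 3.55e-08), or 16.4-fold, and Runx3 was the only member called of 7, against 2.94% of all genes. That call held in every alternative, between -5.74 and -3.31. TFH2 CXCR5lo libraries differed from TH2 by -0.57 ± 0.46 (adjusted p = 0.664), and none of the 7 members was called there, where 1.75% of all genes were. For that gate, 2 members (Rora and Runx1) had an unadjusted p under 0.05 and DESeq2 called 0.

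Between gates, CXCR5hi against CXCR5lo TFH2 cells differed in Runx3 by -3.47 ± 0.58 (adjusted p = 5.3e-05), 11.1-fold, the only member among a total of 0.153% of genes called. This rests on few libraries: it lost its call without TFH2 CXCR5hi replicate 1 (-2.72, adjusted p = 0.0641) and when these groups alone were fitted (adjusted p = 0.484), with a range of 1.4e-06 to 0.484. In TFH cells Runx3 was 102, 175 and 184 CPM in the CXCR5lo gate, 76.6 and 97.3 CPM in CXCR5int and 54.3, 49.3 and 82.1 CPM in CXCR5hi. The CXCR5hi and CXCR5lo libraries of TFH did not overlap, but the difference of -1.33 ± 0.44 missed the threshold (adjusted p = 0.599). There, 0.139% of all genes and none of the 7 members were called, 3 members (Eomes, Runx1 and Runx3) had an unadjusted p under 0.05, and DESeq2 called 0. Whether the gates of TFH2 and TFH differed from each other was tested as an interaction. For Runx3 it was -2.15 ± 0.69 (adjusted p = 0.908), no member was called among 0.0139% of all genes, Tbx21 and Runx3 (2 members) had an unadjusted p under 0.05 and DESeq2 called 0. Without TFH2 CXCR5hi replicate 2 the Runx3 interaction passed (-3.81, adjusted p = 0.0271), over a range of 0.0271 to 1.0. Over the CXCR5lo, CXCR5int and CXCR5hi gates of TFH2, erythroid marker sums were 270 to 426, 423 to 732 and 803 to 1050 CPM, and myeloid marker sums 34.2 to 157, 142 to 353 and 306 to 525 CPM. Neighbouring gates overlapped in the myeloid sums, and CXCR5lo and CXCR5int in the erythroid sums. The part of these markers in the Runx3 difference was not tested.

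**Figure D2:**
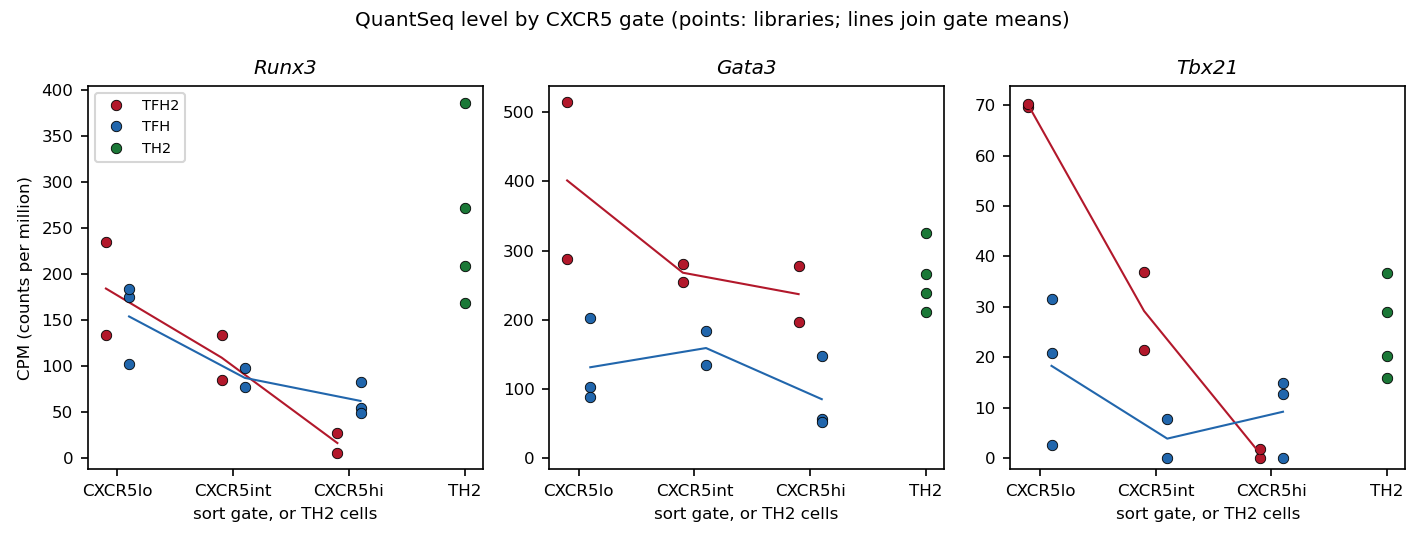
QuantSeq level in CPM (vertical axis, linear) of Runx3, Gata3 and Tbx21 by sort gate from CXCR5lo to CXCR5hi in TFH2 and TFH libraries, with TH2 libraries at the right. Points are libraries and lines join the gate means: Runx3 of TFH2 goes through 184, 109 and 16.2 CPM, and Gata3 of TFH2 lies above that of TFH in each gate.

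The T-box genes were counted unevenly. Tbx21 (ENSMUSG00000001444, chr11:97098071-97115331) was 69.7 and 70.3 CPM in TFH2 CXCR5lo libraries, 21.4 and 36.9 CPM in CXCR5int and 0 and 1.83 CPM in CXCR5hi. These gates did not overlap, yet CXCR5hi against CXCR5lo missed the threshold (-6.14 ± 2.25, adjusted p = 0.771), and so did TFH2 CXCR5hi against TH2 libraries (-4.76 ± 2.04, adjusted p = 0.291). DESeq2 called both (-6.21, adjusted p = 0.0406, and -4.82, adjusted p = 0.0316), and the other alternatives reached an adjusted p of up to 1.0 and 0.893. TFH libraries had 2.52 to 31.5 CPM in CXCR5lo, 0 and 7.66 CPM in CXCR5int and 0 to 14.9 CPM in CXCR5hi, against 15.9 to 36.8 CPM in TH2 libraries. The TFH CXCR5hi difference from TH2 was -1.48 ± 1.42 (adjusted p = 0.718).

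Eomes (ENSMUSG00000032446, chr9:118478212-118486132) was not counted in 10 of 22 QuantSeq libraries. In TFH2 it had 135 counts (47.5 CPM) in 1 CXCR5lo library and 61 counts in 1 CXCR5int library, and the other 4 libraries had none. In TFH it had 80, 3 and 87 counts in CXCR5lo libraries, 23 and 0 in CXCR5int and none in the 3 CXCR5hi libraries. TH2 libraries had 46, 56, 60 and 0 counts. Set at 3 counts in each empty library, TFH CXCR5hi libraries were at least 15.3-fold lower than TH2 and at least 18.3-fold lower than TFH CXCR5lo libraries, a bound on counting error alone, and neither difference passed the edgeR test (adjusted p = 0.142 and 0.641). DESeq2 called the first (adjusted p = 0.0259, in a range of 0.0259 to 0.334). An antisense gene, Gm33460, covers the 3' end of Eomes, with 44 counts in 1 library. No source used here says whether strand was used in counting, so reads of that pair cannot be told apart.

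Foxp3 (ENSMUSG00000039521, chrX:7573644-7595245) was listed at 0 in 21 of 22 QuantSeq libraries and had 69 counts in TFH CXCR5int replicate 1. Its 3' end lies inside Ccdc22 and Gm36995, genes of the opposite strand that were listed at 0 in all libraries too. An absent transcript and reads set aside for this overlap cannot be told apart, so nothing is read from the QuantSeq values of Foxp3.

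Rora, Runx1 and Zbtb7b passed no QuantSeq test. Rora (ENSMUSG00000032238, chr9:68653786-69388246) was 181 and 92.7 CPM in TFH2 CXCR5lo, 57.0 and 59.4 CPM in CXCR5int and 32.7 and 20.9 CPM in CXCR5hi libraries. The TFH2 gates did not overlap, with a CXCR5hi against CXCR5lo difference of -2.30 ± 0.85 (adjusted p = 0.782). In TFH libraries it stayed between 58.3 and 125 CPM, and in TH2 it spread over 52.3, 28.3, 102 and 4.86 CPM. Runx1 (ENSMUSG00000022952, chr16:92601466-92826149) was 94.1 to 150 CPM in all 6 TFH2 libraries and 95.7, 176 and 120 CPM in TFH CXCR5hi libraries, all above the 55.0, 41.8, 54.0 and 7.03 CPM of TH2. The differences from TH2 were 1.33 ± 0.65 for TFH2 CXCR5hi (adjusted p = 0.377), 1.56 ± 0.65 for TFH2 CXCR5lo (adjusted p = 0.336) and 1.70 ± 0.60 for TFH CXCR5hi (adjusted p = 0.106). Groups that do not overlap thus missed the call in each of these. In TFH CXCR5lo libraries Runx1 was 40.8, 106 and 5.21 CPM, which overlaps with TH2. Zbtb7b (ENSMUSG00000028042, chr3:89377644-89394776) was 6.96 to 153 CPM in TFH2, 11.9 to 61.5 CPM in TFH and 27.0 to 81.2 CPM in TH2 libraries, which overlap throughout.

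The knockout libraries showed no called change in any member. Gata3 was 247 and 328 CPM in Bcl6KO libraries and 148 and 153 CPM in Il4KO libraries, against 211 to 325 CPM in TH2. The Il4KO values lay below all TH2 libraries, with a difference of -0.71 ± 0.41 (adjusted p = 0.924; 95% interval -1.51 to 0.08). Runx3 was 182 and 359 CPM in Bcl6KO and 153 and 200 CPM in Il4KO libraries, differing from TH2 by 0.02 ± 0.45 (95% interval -0.86 to 0.91) and -0.48 ± 0.46 (-1.38 to 0.43). Tbx21 was 73.7 and 19.1 CPM in Bcl6KO and 0.861 and 9.47 CPM in Il4KO libraries, and only the Il4KO values lay apart from TH2 (-2.23 ± 1.73, adjusted p = 0.931). With edgeR, 0 of 7 members were called in Bcl6KO (0.0209% of all genes) and 0 of 7 in Il4KO (0.0695%), none had an unadjusted p under 0.05, and DESeq2 called 0 in both. A missed threshold does not show equal levels: the Il4KO intervals reach -1.51 for Gata3 and -1.38 for Runx3 on the log2 scale. Il4KO differs from TH2 in gate as well as genotype, and these cannot be told apart. Ddx3y was 68.6 and 76.9 CPM in Il4KO and 0 in Bcl6KO libraries, and 0 to 97.5 CPM in TH2 libraries, which were thus mixed.

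RNA-seq placed TFH CXCR5hi, TH2 and naive cells side by side at greater depth. Its p-values rest on pairs of libraries that may be technical repeats, and 57.2 to 65.8% of all genes were called. Per transcript length, the members ran over a wide range. In TFH CXCR5hi cells Zbtb7b (59.5 and 60.8 RPKM) and Gata3 (61.7 and 58.2 RPKM) led with overlapping values, followed by mean levels of Runx1 (29.3), Runx3 (10.1), Rora (7.29), Eomes (3.01), Tbx21 (2.77) and Foxp3 (0.915). In TH2 cells Gata3 led at 212 RPKM, before Runx1 (36.0), Zbtb7b (33.8) and Runx3 (26.6), and the other 4 were at 3.85 or below. The libraries of Runx1, Zbtb7b and Runx3 did not all stand apart in TH2 (31.7 and 40.2, 30.2 and 37.5, and 22.9 and 30.2 RPKM). In naive cells Zbtb7b led at 103 RPKM, before Runx3 (27.5), Gata3 (26.0), Runx1 (21.5) and Foxp3 (15.5). RPKM here is the CPM divided by the length of the transcript in kilobases.

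Gata3 was 198 and 187 CPM in TFH, 598 and 768 CPM in TH2 and 85.4 and 82.0 CPM in naive libraries. The groups did not overlap: TH2 exceeded naive cells by 3.04 ± 0.11 (8.23-fold, adjusted p = 8.52e-10) and TFH exceeded naive cells by 1.18 ± 0.11 (2.27-fold, adjusted p = 2.66e-06). TFH was lower than TH2 by a log2 difference of -1.86 ± 0.11 (3.62-fold, adjusted p = 3.91e-08), where QuantSeq gave -1.62 ± 0.36. Runx3 was 37.7 and 40.7 CPM in TFH, 89.0 and 117 CPM in TH2 and 106 and 107 CPM in naive libraries. It fell in TFH against TH2 (-1.43 ± 0.11, adjusted p = 5.47e-07) and against naive cells (-1.47 ± 0.11, adjusted p = 6.27e-07). TH2 and naive libraries overlapped (-0.03 ± 0.10, adjusted p = 0.791). This last value passed the threshold in opposite directions when either TH2 library was left out, at 0.132 (adjusted p = 0.0324) without TH2 replicate 1 and -0.273 (adjusted p = 0.000382) without TH2 replicate 2. RNA-seq transcript counts share reads among transcripts of a gene, with 16003 counts on the Runx3 transcript that starts at the far-upstream promoter and 8648 on the one that starts at the nearer promoter, and do not separate the promoters.

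Tbx21 was low in all groups: 6.51 and 7.30 CPM in TFH, 0.134 and 0.361 CPM in TH2 and 0.346 and 0.477 CPM in naive libraries. These stand for 179 and 140 counts in TFH, 3 and 9 in TH2 and 11 and 17 in naive libraries. TFH exceeded TH2 by 4.71 ± 0.32 (26.1-fold, adjusted p = 1.66e-07) and naive cells by 4.02 ± 0.28 (16.2-fold, adjusted p = 2.97e-07). TH2 and naive libraries overlapped (-0.69 ± 0.42, adjusted p = 0.196), a difference that passed without TH2 replicate 2 (-1.61, adjusted p = 0.0439; range 0.0439 to 0.759). Eomes was 10.5 and 10.9 CPM in TFH, 12.2 in both TH2 and 6.58 and 5.67 CPM in naive libraries, rising against naive cells in TFH (0.78 ± 0.13, adjusted p = 0.000339) and in TH2 (1.01 ± 0.13, adjusted p = 3.31e-05). Between TFH and TH2 it differed by -0.23 ± 0.13 (adjusted p = 0.147). The 7 CD8 and NK cell markers summed to 64.7 and 69.3 CPM in TFH, 11.1 and 12.1 CPM in TH2 and 20.1 and 20.4 CPM in naive libraries, with 4 of 7 counted in each group. Their part in the T-box values was not tested.

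Rora was 77.9 and 80.7 CPM in TFH, 43.4 and 40.4 CPM in TH2 and 8.31 and 6.62 CPM in naive libraries. It rose against naive cells in TFH (3.39 ± 0.11, 10.5-fold, adjusted p = 5.41e-10) and in TH2 (2.51 ± 0.11, 5.68-fold, adjusted p = 4.22e-09), and TFH stood above TH2 by 0.88 ± 0.10 (adjusted p = 9.46e-06). The order of the groups, TFH, TH2, naive, had no overlap. Foxp3 ran the other way, with 3.78 and 3.23 CPM in TFH, 12.7 and 12.5 CPM in TH2 and 57.4 and 61.4 CPM in naive libraries. The naive gate excluded CD25, the product of Il2ra, which most regulatory T cells carry, and these naive libraries still held 1824 and 2187 Foxp3 counts. It fell 17.0-fold in TFH (-4.09 ± 0.12, adjusted p = 2.06e-10) and 4.67-fold in TH2 (-2.22 ± 0.10, adjusted p = 4.66e-09) against naive cells, and TFH differed from TH2 by -1.86 ± 0.12 (adjusted p = 1.25e-07). Reads from the stretch shared with Ccdc22 cannot be told apart here either.

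Zbtb7b was 229 and 234 CPM in TFH, 116 and 144 CPM in TH2 and 392 and 397 CPM in naive libraries. It fell against naive cells in TFH (-0.79 ± 0.09, adjusted p = 1.67e-05) and in TH2 (-1.59 ± 0.09, 3.00-fold, adjusted p = 3.78e-08), and TFH exceeded TH2 by 0.80 ± 0.09 (adjusted p = 1.37e-05). Runx1 was 172 CPM in both TFH, 186 and 236 CPM in TH2 and 127 and 125 CPM in naive libraries. Against naive cells it rose by 0.43 ± 0.09 in TFH (adjusted p = 0.0022) and 0.76 ± 0.09 in TH2 (adjusted p = 2.37e-05). TFH lay below TH2 by -0.33 ± 0.09 (adjusted p = 0.00926), which lost its call without TFH CXCR5hi replicate 2 (-0.319, adjusted p = 0.0793; range 1.14e-08 to 0.0793) and shrank to -0.175 without TH2 replicate 2. In all, 6 of 8 members were called in TH2 against naive cells (65.8% of all genes), 8 of 8 in TFH against naive cells (57.2%) and 7 of 8 in TFH against TH2 (61.8%). With most genes called in each comparison, nothing particular to the members is read from these counts. The 3 comparisons share libraries. TFH libraries held Ddx3y at 81.5 and 86.3 CPM and Xist at 0.313 and 0.327 CPM, whereas TH2 and naive libraries held Ddx3y at 0.063 CPM or less and Xist at 572 to 1200 CPM, so cell type and donor sex cannot be told apart in the TFH comparisons. Basophil and mast cell markers summed to 47.1 and 58.9 CPM in TH2 libraries, with Cpa3 leading and 3 of 5 markers counted, against 0.0521 and 0.109 CPM in TFH and 0.472 and 0.533 CPM in naive libraries.

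**Figure D3:**
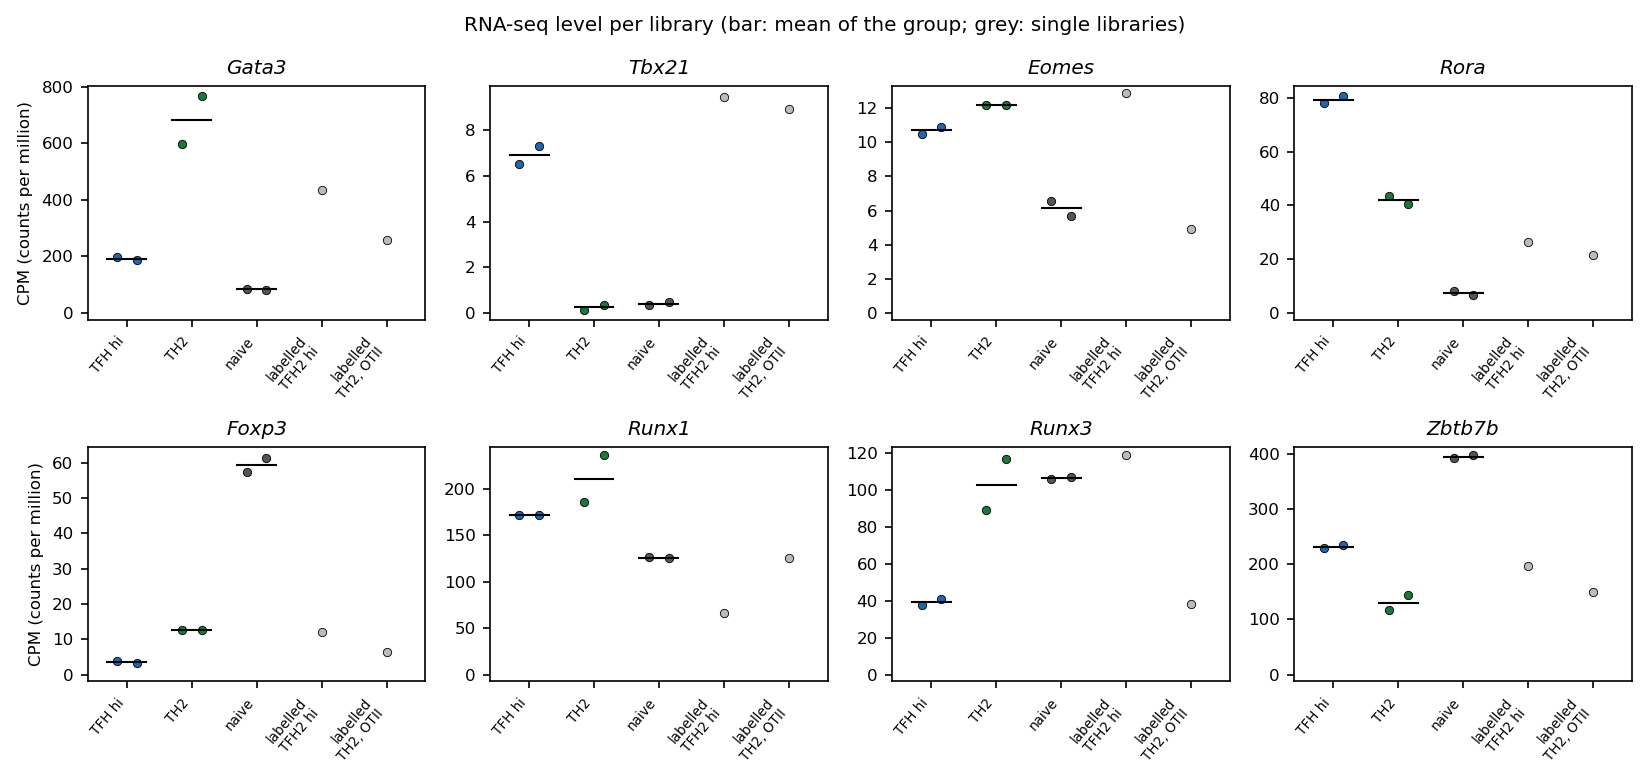
RNA-seq level of each member in CPM (vertical axis, linear, from 0) in each library (points), with the mean of groups of 2 as a bar. Gata3 is highest in TH2 (598 and 768 CPM), Rora in TFH (77.9 and 80.7 CPM) and Foxp3 and Zbtb7b in naive libraries; the grey points are the libraries labelled TFH2 and TH2 that went against their labels.

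The library labelled TFH2 held 433 CPM of Gata3, 119 of Runx3, 65.8 of Runx1, 196 of Zbtb7b, 26.3 of Rora, 12.9 of Eomes, 11.9 of Foxp3 and 9.47 of Tbx21. The library labelled TH2 held 258 CPM of Gata3, 38.3 of Runx3, 126 of Runx1, 150 of Zbtb7b, 21.6 of Rora, 4.95 of Eomes, 6.30 of Foxp3 and 8.94 of Tbx21. No direction is drawn from single libraries whose gate genes go against the label.

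TFH CXCR5hi and TH2 cells were compared in both assays, though on different genotypes of TH2 mice. The sex-linked transcripts of TFH and TH2 libraries also differed between the assays. Gata3 and Runx3 were lower in TFH in both and passed both tests. Rora was higher in TFH in both (0.62 ± 0.61 in QuantSeq, adjusted p = 0.733), and passed in RNA-seq. Eomes was not counted in the 3 QuantSeq TFH CXCR5hi libraries, at least 15.3-fold lower than TH2 but not called, and in RNA-seq was 10.5 and 10.9 CPM in TFH against 12.2 CPM in both TH2 libraries (-0.23 ± 0.13, not called). Tbx21 was lower in TFH by QuantSeq (-1.48 ± 1.42) and higher by RNA-seq (4.71 ± 0.32), Runx1 higher (1.70 ± 0.60) and lower (-0.33 ± 0.09), and Zbtb7b lower (-1.11 ± 0.78) and higher (0.80 ± 0.09). The difference between the assays was not tested.

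**Figure D4:**
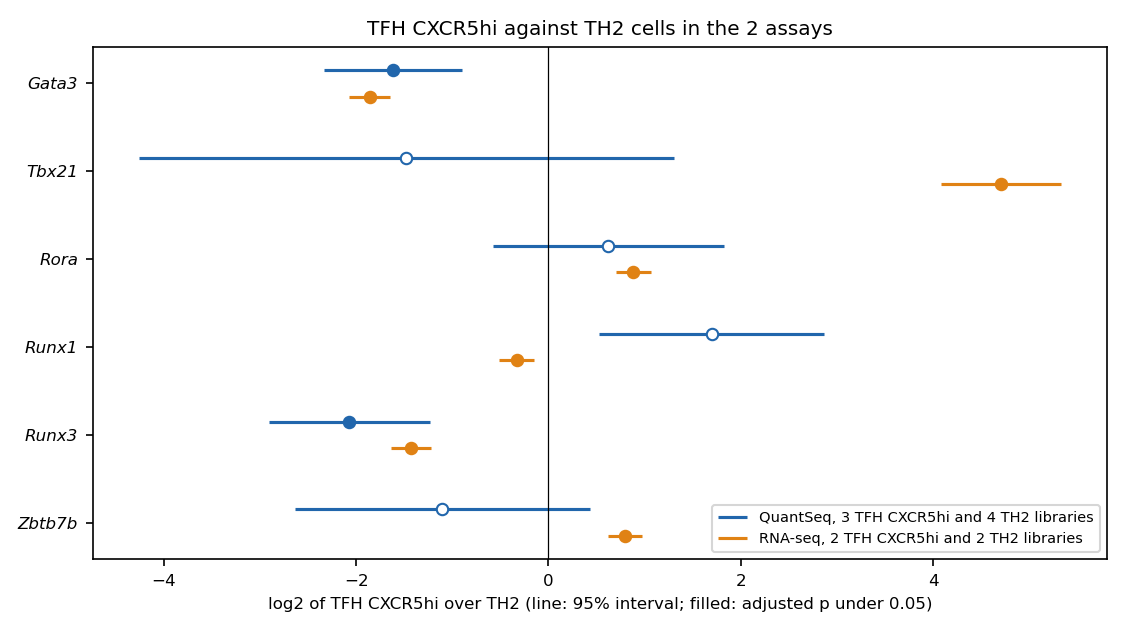
Log2 difference of TFH CXCR5hi over TH2 libraries (horizontal axis) for 6 members in QuantSeq and RNA-seq, without Eomes, which has no count in QuantSeq TFH CXCR5hi libraries, and Foxp3, which was not tested there, with 95% intervals as lines and filled points for an adjusted p under 0.05. Gata3 and Runx3 lie left of 0 in both assays, and Tbx21, Runx1 and Zbtb7b lie on opposite sides.

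Around each factor stands the programme it is known to drive, listed as 5 groups of genes. Of 18 GATA3/TH2 genes, 15 could be tested in QuantSeq. In TFH CXCR5hi against TH2 cells 1 rose (Maf, a transactivator of Il4, 2480 ± 1170 CPM in TFH and 1100 ± 308 CPM in TH2) and 1 fell (Il4ra, the IL-4 receptor chain, 122 ± 70.3 and 1770 ± 350 CPM), with a median of 0.04 against 0.00 for all genes. Il4ra fell in each TFH and TFH2 gate tested against TH2: to 225 ± 77.7 CPM in TFH2 CXCR5lo, 75.5 ± 44.0 CPM in TFH2 CXCR5hi and 148 ± 70.7 CPM in TFH CXCR5lo libraries. Between TFH2 and TFH over all gates, 1 of the 15 was called: Epas1, the gene of HIF-2α, at 113 ± 54.7 CPM in TFH2 and 11.8 ± 11.3 CPM in TFH (3.32 ± 0.64, adjusted p = 0.00107). The list's median there was 1.83, against -0.05 for all genes. In RNA-seq, all 18 were tested, and in TH2 against naive cells 16 rose and 1 fell, with a median of 5.70. Il1rl1, the IL-33 receptor, was 314 ± 13.0 CPM in TH2 and 0.429 ± 0.0281 CPM in naive libraries (n = 2 each). In TFH against naive cells 9 rose and 4 fell (median 1.55), and in TFH against TH2 cells 5 rose and 11 fell (median -1.57), among the latter Il1rl1, Ccr8, Il4ra and Epas1.

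Of 19 T-box, TH1 and cytotoxic genes, 15 were tested in QuantSeq. Against TH2, 2 of them fell in TFH CXCR5hi cells: the chemokine receptor gene Cxcr6 (26.7 ± 9.96 CPM in TFH CXCR5hi and 149 ± 26.8 CPM in TH2) and Nkg7, a granule gene not counted in TFH CXCR5hi and at a mean of 3.61 CPM in TH2. The median was -2.89, and -1.86 when each gene empty in a group was set to its bound. In the other gates set against TH2, the list's medians were 0.11 (TFH CXCR5lo), -0.14 (TFH2 CXCR5hi) and 0.56 (TFH2 CXCR5lo). In TFH2 CXCR5lo against TH2, 2 genes rose and 0 fell. They were Nkg7 (163 ± 8.17 CPM in TFH2 CXCR5lo) and Il2rb (763 ± 81.8 CPM, against 227 ± 99.2 CPM in TH2). Over all gates, Cxcr6 was higher in TFH2 (132 ± 91.9 CPM, n = 6) than in TFH (19.1 ± 10.3 CPM, n = 8), by 2.65 ± 0.34 (adjusted p = 2.62e-08). These SDs also span the gates. Cxcr6 was the only gene of this list called between TFH2 and TFH. The list's median there was 1.38, against -0.05 for all genes, so a raised median was not particular to the GATA3/TH2 list. RNA-seq tested 18, and TH2 against naive cells had 12 up and 4 down (median 1.06), led by Gzmb, the gene of granzyme B, at 2530 ± 250 CPM in TH2 and 0.184 ± 0.141 CPM in naive libraries. TFH against naive cells had 10 up and 3 down (median 1.15), and TFH against TH2 cells 7 up and 8 down (median -0.60), Gzmb among those that fell.

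The ROR and TH17 list was largely out of reach of QuantSeq, which tested 4 of 11 genes. RNA-seq tested 7, of which 6 rose in TFH against naive cells (median 3.42), 4 rose and 1 fell in TH2 against naive cells (median 2.15), and 6 rose and 1 fell in TFH against TH2 (median 3.11). Il1r1, the IL-1 receptor, was 112 ± 5.58 CPM in TFH, 6.31 ± 1.05 CPM in TH2 and 0.117 ± 0.0324 CPM in naive libraries. Of the FOXP3 and regulatory list, QuantSeq tested 13 of 14 genes, and TFH CXCR5hi against TH2 had 2 up, Izumo1r (folate receptor 4; 805 ± 55.5 and 9.02 ± 4.46 CPM) and Ikzf2 (Helios; 206 ± 46.4 CPM in TFH), and 2 down, Il2ra and Lrrc32, which were not counted in TFH CXCR5hi libraries. In RNA-seq, 11 rose and 3 fell in TH2 against naive cells (median 2.94) and 8 rose and 6 fell in TFH against naive cells (median 1.57). All 14 changed in TFH against TH2, 6 up and 8 down (median -1.53), while Foxp3 itself was lower in TFH. Ikzf2 was 308 ± 1.04 CPM in TFH and 1.5 ± 0.0348 CPM in TH2, and Il2ra 2.68 ± 0.857 and 378 ± 3.36 CPM. Izumo1r and Ikzf2 are known on TFH cells and activated T cells as well as on regulatory T cells.

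Among 16 genes of Runx and ThPOK partners and of the choice between CD4 and CD8, QuantSeq tested 15. In TFH CXCR5hi against TH2, 3 rose and 1 fell. Those that rose were Cd4 (1180 ± 97.7 and 480 ± 81.6 CPM), Tcf7 (589 ± 235 and 229 ± 49.3 CPM), which encodes TCF1, and Myb (99.5 ± 17.4 and 7.79 ± 6.52 CPM). The gene that fell was Satb1, an organizer of chromatin in T cells (112 ± 32.5 and 939 ± 267 CPM). Satb1 was called in TFH and TFH2, at both the CXCR5lo and CXCR5hi gates, against TH2, and between the TFH gates too, where CXCR5hi libraries (112 ± 32.5 CPM) lay below CXCR5lo libraries (317 ± 11.3 CPM; -1.51 ± 0.29, adjusted p = 0.0016). In RNA-seq, 10 of 16 fell and 2 rose in TH2 against naive cells (median -0.48), 8 rose and 5 fell in TFH against naive cells (median 0.29), and 9 rose and 3 fell in TFH against TH2 (median 0.69). Tcf7 was 2380 ± 15.2 CPM in TFH, 101 ± 6.37 CPM in TH2 and 1500 ± 32.7 CPM in naive libraries, and Tox, a factor of CD4 development, 401 ± 7.78, 3.33 ± 0.104 and 59.5 ± 1.22 CPM. In these RNA-seq comparisons the background share of called genes is that given above, and the lists' counts show no more than these values.

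The genes whose QuantSeq pattern was most like a member's were taken as the 3 highest Pearson correlations of log2(CPM + 1) among the genes tested, over 22 libraries that share groups and depth. For Runx3 they were Rasgrp2, an activator of RAP1 (r = 0.85), Adgre5, which encodes CD97 (0.84), and Itgb7, integrin beta 7 (0.81). For Gata3 they were Calcrl (0.80), Mxi1 (0.78) and Ppp3cc, a calcineurin subunit (0.75), and for Runx1 Abi2 (0.82), Gatad1 (0.82) and Ppp1r16b (0.81). Rora came with Copz1 (0.80), Ccdc25 (0.80) and Txnl4a (0.76), and Tbx21 with Cish, a suppressor of cytokine signalling (0.71), Capg (0.71) and Acat2 (0.70). Zbtb7b came with Ginm1 (0.74), Nom1 (0.73) and Gm17494 (0.72). Eomes, with counts in 12 libraries, came with Gm15212 (0.79), Alg3 (0.78) and Slc7a6 (0.75). These are the highest of 14383 values and a description only.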

How the data were processed

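Per the labels' protocols, spleen T cells were sorted by flow cytometry, RNA was taken with Trizol, and libraries were made with the Lexogen 3' mRNA kit (22) or the NEB Next Ultra kit (8). Named in the submitters' processing notes, with no role given, are featureCounts 1.6.0, STAR 2.7.0c and Bowtie 0.12.2, and the builds GRCm38.p6, mm10 and mm9. As deposited, QuantSeq files hold raw counts of genes, and RNA-seq files raw counts of transcripts. Names and loci came from GENCODE M21 (GRCm38). QuantSeq identifiers without a name (179 of 55573) held 0.0293% of counts, and RNA-seq transcripts without a gene held 14.66% and were left out. Because sums over transcripts were 2.517 times the highest-count transcripts, 1 transcript, that of highest total count, stands for each RNA-seq gene.

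Tests used the quasi-likelihood method of edgeR 4.0.16 under R 4.3.3 (TMM factors, filterByExpr with minimum count 10 and minimum total 15, robust quasi-likelihood fit, 2-sided test), with Benjamini-Hochberg adjustment over all genes of a comparison. For QuantSeq, 14383 genes in 9 groups were fitted (13 residual degrees of freedom), and for RNA-seq 17013 genes in 5 groups (3). CPM use the total count of a library. Each SE was calculated back from the log2 difference and its test statistic, and intervals are 95% by a normal approximation. They do not allow for the limited degrees of freedom, so they can be too narrow, in RNA-seq most of all. Bounds put 3 counts in each empty library. Where nothing says that libraries came from separate mice, p-values reflect only how far these libraries scatter, possibly for technical reasons. Nor do the labels say whether different CXCR5 gates were sorted from the same mice. The fits treated all libraries as independent, also in the comparison of TFH2 with TFH over the gates. The alternatives were DESeq2 1.42.0, RLE factors, no filter, a fit of the groups compared alone, sums over transcripts, and leaving out each replicate. The members and gene lists were chosen with earlier results of these data known. Named from each list are at most 4 called genes per comparison, by smallest adjusted p; 1 gene of the T-box list is not reported here.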

Additional observations from a re-analysis of the deposited data

Results flagged for a closer look

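Among the 7 members tested in the 4 QuantSeq TH2 libraries, 1 value stood far from the others: Eomes was 0.0 CPM in TH2 replicate 4, against 17.9, 18.9 and 19.9 CPM in the other 3. That library had 1850033 counts and 7456 genes with 10 or more counts, the fewest such genes of any QuantSeq library. It was also the lowest TH2 library for Rora (4.86 CPM), Runx1 (7.03 CPM), Runx3 (168 CPM) and Zbtb7b (27.0 CPM), but the highest for Tbx21 (36.8 CPM). Chance flags about 1 in 20 such groups.

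Between the assays, 2 members moved in opposite directions in TFH CXCR5hi against TH2 cells, with no overlap of the libraries in either assay. Tbx21 differed by -1.48 in QuantSeq and 4.71 in RNA-seq, and Runx1 by 1.70 in QuantSeq and -0.33 in RNA-seq (log2). Neither QuantSeq difference was called (edgeR adjusted p = 0.718 and 0.106). Both RNA-seq differences were, where 61.8% of all genes were called. The share of all genes with such a pattern is not given here, so nothing particular to these members is read from it. The difference between the assays was not tested, and the TH2 mice differ in genotype: IL-4BacTg x OTII Tg in QuantSeq and IL-4BacTg in RNA-seq. Sex-linked transcripts differ as well. TFH libraries held Xist and no Ddx3y in QuantSeq, but Ddx3y and little Xist in RNA-seq. TH2 libraries were mixed in QuantSeq and held Xist with almost no Ddx3y in RNA-seq.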

How the results depend on the processing

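Of 94 results on single members, 26 were called, and 23 of these kept direction and call under every alternative. Most calls came from RNA-seq, with 6, 8 and 7 members called where 57.2 to 65.8% of all genes were. In QuantSeq comparisons with a member called, 0.153 to 3.51% of all genes were called. There, Gata3 in TFH CXCR5hi against TH2 and Runx3 between TFH2 gates lost their call under some alternative. In RNA-seq, Runx1 in TFH against TH2 did. Of the 68 not called, 7 passed under some alternative. The 1 reversed was Runx3 in RNA-seq TH2 against naive cells, 0.132 without TH2 replicate 1 and -0.273 without TH2 replicate 2. DESeq2 called more genes in QuantSeq: 880 in place of 505 (TFH CXCR5hi against TH2), 604 of 320 (TFH CXCR5lo), 729 of 423 (TFH2 CXCR5hi), 551 of 252 (TFH2 CXCR5lo), 234 of 93 (TFH2 against TFH), 83 of 20 and 104 of 22 (CXCR5hi against CXCR5lo in TFH and in TFH2), 105 of 3 (Bcl6KO), 70 of 10 (Il4KO) and 23 of 2 (interaction). It called 3 members in place of 2 in TFH CXCR5hi against TH2, 2 in place of 1 in TFH2 CXCR5hi against TH2 and 2 in place of 1 between TFH2 gates. Without the filter the counts were 142 (TFH2 against TFH), 33 and 36 (gates of TFH and TFH2), 17 (Bcl6KO), 38 (Il4KO) and 4 (interaction). With the groups compared fitted alone they were 160 (TFH2 CXCR5lo), 7 and 0 (gates), 1 (Bcl6KO) and 0 (Il4KO), and 0 members between TFH2 gates. The cause was not tested. Leaving out 1 replicate gave 336 to 463 genes for TFH CXCR5hi against TH2, 157 to 342 for TFH2 CXCR5lo, 80 to 214 for TFH2 against TFH, 13 to 29 and 21 to 111 between the gates of TFH and TFH2, 7 to 56 for Bcl6KO, 10 to 31 for Il4KO and 1 to 43 for the interaction. It gave 1 to 2 members for TFH CXCR5hi against TH2, and 0 to 1 for TFH CXCR5lo, between TFH2 gates and for the interaction. Where an arm had 1 library left, it was assumed to vary like the other groups. No paired analysis was possible because the labels give no replicate number, and those used here are only names. At QuantSeq depth, Tbx21, Eomes and Foxp3 had libraries without a count, which limits their comparisons to large differences.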
